A study of Mus musculus with 2 samples.

Results

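The barcodes described here are epithelial droplets that carried RNA of Il4i1, Plb1 and Ccl25. They were chosen by the measured UMIs of these 3 genes, where a UMI is a unique molecular identifier that counts 1 captured RNA molecule. A barcode had to hold at least 2000 UMIs and 500 genes, under 25% mitochondrial UMIs, at least 1 UMI of Epcam and none of the immune genes Ptprc and C1qb. Of the barcodes that passed, members had at least 4 UMIs of Il4i1, Plb1 and Ccl25 summed. The rule found 989 members among 5179 epithelial barcodes of the library labelled M14(f/f);Villin-Cre, called Mettl14_cKO here, and 4 among 7704 of the control library, out of 19406 barcodes in the series. Its colonic crypt cells were isolated from C57BL/6 mice, 4 weeks old. The control cells came from M14(f/f) mice of the same strain and age without the Cre, so both groups carried the floxed alleles. M14 was read as Mettl14. Villin-Cre makes its recombinase in the gut epithelium and leaves other cells of the crypt preparation with the floxed gene. Each genotype was 1 library from pooled cells of 3 mice, so no error between animals could be had and no test was made. All intervals below are 95% intervals of counting error only.

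Mettl14 encodes the partner of Mettl3 in the enzyme that writes N6-methyladenosine on RNA. Il4i1 is a secreted oxidase of aromatic amino acids that is best known from immune cells. Plb1 is a phospholipase of the brush border, and Ccl25 is the chemokine through which small intestinal epithelium draws Ccr9-positive lymphocytes. Msln, named with this state, encodes mesothelin, a surface protein of mesothelium. Colonic crypts normally hold stem cells, dividing progenitors, absorptive colonocytes, goblet cells, enteroendocrine cells and tuft cells. Over lymphoid follicles the epithelium also holds M cells, which carry luminal antigen to the immune cells beneath, form under the cytokine RANKL and depend on the transcription factors Spib and Sox8.

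The promoters of the 3 rule genes are shown first because the rule joins them, with those of Ccl20 and Spib, whose levels moved with the rule genes. Each is the 250 bases before the gene's start in RefSeq's GRCm38.p6 annotation, written 5′ to 3′ along the gene's strand. Capitals mark matches to the motifs described later. For Plb1 and Ccl25 the table held 2 starts each and 1 is shown, and the start shown for Plb1 lay 6370 bases from the gene's principal start. The table held none for Msln.
Il4i1, chr7:44836038-44836287, plus strand: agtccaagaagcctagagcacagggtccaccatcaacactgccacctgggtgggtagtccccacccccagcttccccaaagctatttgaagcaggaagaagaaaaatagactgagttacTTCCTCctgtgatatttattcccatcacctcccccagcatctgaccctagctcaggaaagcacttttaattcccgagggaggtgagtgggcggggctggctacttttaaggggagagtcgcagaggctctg
Plb1, chr5:32238834-32239083, plus strand: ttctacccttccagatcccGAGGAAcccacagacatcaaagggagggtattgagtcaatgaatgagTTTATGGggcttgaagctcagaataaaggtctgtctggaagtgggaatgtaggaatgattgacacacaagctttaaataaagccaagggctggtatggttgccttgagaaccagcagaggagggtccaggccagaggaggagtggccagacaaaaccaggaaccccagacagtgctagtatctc
Ccl25, chr8:4349338-4349587, plus strand: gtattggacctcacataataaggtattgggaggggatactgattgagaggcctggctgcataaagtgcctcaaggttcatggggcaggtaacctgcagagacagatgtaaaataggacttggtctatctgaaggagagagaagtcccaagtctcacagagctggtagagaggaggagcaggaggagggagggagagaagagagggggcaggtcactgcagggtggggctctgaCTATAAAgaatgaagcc
Ccl20, chr1:83116516-83116765, plus strand: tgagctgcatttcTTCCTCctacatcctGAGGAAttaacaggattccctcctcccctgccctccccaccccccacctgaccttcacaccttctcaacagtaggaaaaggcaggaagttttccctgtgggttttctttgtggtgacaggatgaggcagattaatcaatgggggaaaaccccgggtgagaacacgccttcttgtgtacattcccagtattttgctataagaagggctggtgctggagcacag
Spib, chr7:44532072-44532321, minus strand: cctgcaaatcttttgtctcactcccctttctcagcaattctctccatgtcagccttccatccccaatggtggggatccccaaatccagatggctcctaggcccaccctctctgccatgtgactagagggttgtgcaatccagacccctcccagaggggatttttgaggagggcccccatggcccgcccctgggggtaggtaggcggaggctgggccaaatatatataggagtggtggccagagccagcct

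The members were 19.1% of epithelial barcodes in Mettl14_cKO (18.0 to 20.2%) and 0.0519% in the control (0.0141 to 0.133%). In Mettl14_cKO the summed count of the 3 genes in a member had quartiles of 6, 11 and 23 UMIs and reached 256. The lowest members, with 4 UMIs, were 115 barcodes, and the highest barcodes outside, with 3 UMIs, were 174. CPM is the UMIs of a gene per 1000000 UMIs summed over the barcodes of a group. Ccl20 had 140 CPM in the barcodes of 4 UMIs and 161 CPM in those of 3 UMIs. Spib had 26.2 CPM with 4 UMIs and 11.003 CPM with 3, and Spink4 had 564 and 1958 CPM. Msln had 63.5 CPM with 4 UMIs and 74.3 CPM with 3, Gp2 33.8 and 53.5 CPM, and Fabp5 411 and 403 CPM. The 2 sides of the threshold thus differed in some genes and not in others, and not all in 1 direction. None of the 4 control members held a UMI of Plb1, Msln, Ccl20 or Spib. Of these 4, 2 owed all their rule UMIs to Ccl25, 1 held 3 UMIs of Ccl25 with 1 of Il4i1, and 1 held 4 UMIs of Il4i1.

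**Figure D1:**
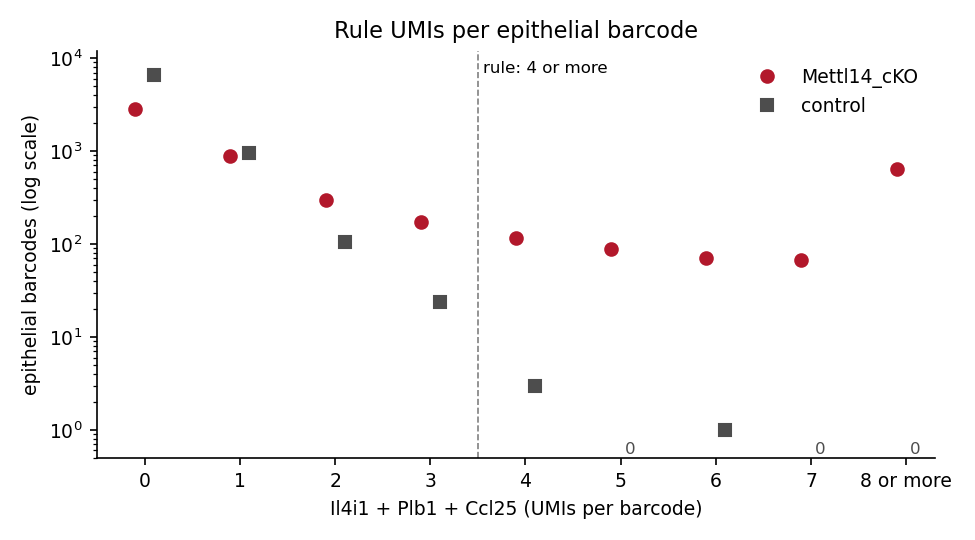
Number of epithelial barcodes (log scale) by summed UMIs of Il4i1, Plb1 and Ccl25, in Mettl14_cKO (circles) and control (squares). The dashed line marks the rule. In the control, 3 barcodes had 4 UMIs, 1 had 6 and none had 8 or more.

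Depth moved with membership. Members held a median of 17371 UMIs and 3681 genes, against 9359.5 UMIs and 2481.5 genes in the 4190 other epithelial barcodes of Mettl14_cKO and 11502 UMIs and 2878 genes in the control epithelial barcodes. The median mitochondrial share was 3.42% in members, 4.89% in the others and 3.41% in the control. In Mettl14_cKO the member share was 4.01% among barcodes of 2000 to 5000 UMIs, 14.5% up to 10000, 29.8% up to 20000 and 26.8% above that. With every barcode thinned to 2000 UMIs, which left out no barcode, 21.5% of epithelial barcodes in Mettl14_cKO (20.4 to 22.7%) and 2.40% in the control (2.07 to 2.77%) kept at least 1 rule UMI. At least 2 rule UMIs remained in 10.2% in Mettl14_cKO and 0.0389% in the control. As a rough measure of free RNA, 4.74% of the 211 Ptprc-positive, Epcam-negative barcodes of Mettl14_cKO (median 3816 UMIs) kept at least 1 rule UMI after thinning. Il4i1 was found in 6 of these 211 barcodes, and Plb1 and Ccl25 in 2 each. Some may be cells that make Il4i1, so the share need not be free RNA alone. In the control, 1 of 24 such barcodes kept a rule UMI (4.17%, 0.105 to 21.1%), which is too few to set a background for the control share. Scrublet, a doublet caller, gave scores of at least 0.25 to 2 members and 17 other epithelial barcodes in Mettl14_cKO. It marked too few barcodes to count as having worked, so doublets were not removed. Between the libraries 33 barcode sequences were shared, 2 of them members.

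Genotype could not be told apart from sex, since Xist had 261 CPM in members, 312 CPM in the other epithelial barcodes and 0.0651 CPM in the control, and 4 Y-linked genes had 0, 6 and 11046 UMIs in the same groups. Mettl14 itself had 4.50 CPM in members, 5.26 CPM in the others and 4.75 CPM in control epithelial barcodes. The sources used here give neither the deleted exons nor the transcript end that was read, so this level does not check the label. The gasdermin C genes, which encode pore-forming proteins of gut epithelium, were low in members and others alike. Gsdmc4 had 6.49 CPM in members, 13.5 CPM in the others and 240.6 CPM in the control, and Gsdmc2 had 7.73, 11.6 and 73.8 CPM in the same order. Gsdmc3 had 6.35, 6.56 and 20.1 CPM, and Gsdmc had no UMI in either group of Mettl14_cKO. Within the 4 clusters richest in members, described later, members had less than the others. The log2 ratios of CPM plus 10 were -1.35 for Gsdmc2, -1.16 for Gsdmc3 and -0.71 for Gsdmc4. Against the colonocyte gene barcodes of Mettl14_cKO, also described later, they were -1.06, 0.38 and -2.54 in the same order.

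How many of the 3 rule genes a member held depends in part on the rule and on depth, so these counts are a description. All 3 had a UMI in 488 members (49.3%, 46.2 to 52.5%), and Il4i1 with Ccl25 but no Plb1 in 233 (23.6%). Il4i1 came with Plb1 alone in 96 members and Plb1 with Ccl25 alone in 74, while 72 held only Il4i1, 19 only Ccl25 and 7 only Plb1. Il4i1 had quartiles of 2, 6 and 14 UMIs per member and a highest count of 192, and 89.9% of members held at least 1. The summed level of Il4i1 was 555 CPM in members, 9.96 CPM in the others and 1.0 CPM in the control. Ccl25 had 228 CPM in members, 18.4 CPM in the others and 10.5 CPM in the control. Plb1 had 118 CPM in members, 5.15 CPM in the others and 0.0744 CPM in the control, where 8 UMIs were counted in all. These contrasts are what the rule selected and are given as a description.

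Each rule gene was then read in barcodes chosen by the other 2 alone, with the same threshold of 4 UMIs. Il4i1 had 595 CPM in the 632 barcodes so chosen and 58.0 CPM in the other 4547 epithelial barcodes of Mettl14_cKO, a 10.3-fold difference (9.88 to 10.7). Plb1 had 115 CPM in 869 chosen barcodes and 10.4 CPM in the rest, 11-fold (10.1 to 12.03). Ccl25 had 241 CPM in 789 chosen barcodes and 29.5 CPM in the rest, 8.20-fold (7.76 to 8.66). The 3 genes were joined in the rule with earlier results of these data known. These differences are therefore a description and not independent support for the state. At an equal depth of 2000 UMIs, 52.5% of the barcodes chosen without Il4i1 held an Il4i1 UMI, against 7.79% of the rest. The gap for Plb1 was 20.6% against 2.51%, and for Ccl25 it was 36.1% against 6.26%.

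Msln, which the rule did not use, had 228 CPM in members and 22.4 CPM in the other epithelial barcodes of Mettl14_cKO, a 10.2-fold difference (9.57 to 10.8). Msln was named with the state with earlier results of these data known, so its values are a description and not independent support. Not 1 UMI of it was counted in the 7704 control epithelial barcodes. At 2000 UMIs per barcode 35.1% of members held an Msln UMI, against 5.37% of the others and 0.948% of the Ptprc-positive barcodes. The Mettl14_cKO library held 507 epithelial barcodes with at least 4 Msln UMIs, of which 422 were members (83.2%, 79.7 to 86.4%), and these were 42.7% of all members. Within the state, 731 members held an Msln UMI and 258 did not, at median depths of 17369 and 17480 UMIs. Il4i1 had 647 CPM in members with Msln and 315 CPM in those without, Plb1 146 and 44.0 CPM, and Ccl20 1348 and 342 CPM. Members without Msln carried more of the goblet gene Muc2, with 612 CPM in members with Msln and 997 CPM in those without.

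Apart from the rule genes, 2635 genes reached 50 CPM in members or in the other epithelial barcodes of Mettl14_cKO with at least 10 UMIs. Of these, 70 (2.66%) were at least 2-fold higher in members and 73 (2.77%) at least 2-fold lower, on the scale of CPM plus 10. The median over all of them was a log2 ratio of 0.14. Because the members were picked from the same counts, these counts describe the group and are not a test. The genes that were highest in members encode a chemokine, lipid-binding proteins, a protease inhibitor, a transcription factor and proteins usually known from phagocytes. The lowest were mostly genes of enteroendocrine and goblet cells.

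Ccl20, the chemokine that attracts Ccr6-positive lymphocytes and dendritic cells, led the list with 1069 CPM in members, 57.1 CPM in the others and 23.7 CPM in the control, a log2 ratio of 4.01 over the others. Its quartiles were 1, 5 and 23 UMIs per member, and 75.03% of members held at least 1 UMI. Thinned to 2000 UMIs, 48.3% of members, 8.97% of the others and 3.65% of control epithelial barcodes held a Ccl20 UMI, against 3.79% of the Ptprc-positive barcodes. These were barcodes of Mettl14_cKO. Of the 24 such barcodes of the control, none held a Ccl20 UMI, which allows a share of up to 14.2%. Spib, a transcription factor needed for M cell maturation and also made by B and dendritic cells, had 81.4 CPM in members, 2.49 CPM in the others and 0.13 CPM in the control (log2 2.87). Thinned, 18.0% of members and 0.979% of the others held a Spib UMI. Of the 211 Ptprc-positive barcodes 2 did so (0.948%, 0.115 to 3.38%). These are too few to set a background for Spib, and some may be cells that make it. At least 2 Spib UMIs were found in 387 barcodes of Mettl14_cKO, of which 361 were members (93.3%, 90.3 to 95.6%), and these made up 36.5% of the members.

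Fabp5, a fatty acid binding protein of squamous epithelium and other tissues, had 1718 CPM in members, 176 CPM in the others and 80.9 CPM in the control (log2 3.22). Serpinb1a, an inhibitor of neutrophil proteases, had 3017 CPM in members, 455 CPM in the others and 312 CPM in the control (log2 2.70). Its quartiles were 14, 35 and 79 UMIs per member, against 1, 3 and 8 in the others. At 2000 UMIs per barcode 87.6% of members and 44.4% of the others held a Serpinb1a UMI, against 18.5% of the Ptprc-positive barcodes. H2-M2, a non-classical class I gene, had 138 CPM in members, 10.3 CPM in the others and 0.521 CPM in the control (log2 2.86). Igf1, a growth factor, had 98.0 CPM in members, 7.11 CPM in the others and 0.0372 CPM in the control (log2 2.66). Clu, a secreted chaperone, had 129 CPM in members, 12.6 CPM in the others and 3.30 CPM in the control (log2 2.62). These 3 genes were thus near absent from control epithelium and low in the other barcodes of Mettl14_cKO.

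Vamp5, a vesicle membrane protein, had 173 CPM in members, 27.8 CPM in the others and 2.49 CPM in the control (log2 2.28). Ubd, a ubiquitin-like modifier, had 264 CPM in members, 47.6 CPM in the others and 0.772 CPM in the control (log2 2.25). Exoc3l4 had 75.8 CPM in members and 8.37 CPM in the others (log2 2.22), and 1700011H14Rik had 50.7 CPM in members and 2.76 CPM in the others (log2 2.25). In the control Exoc3l4 had 7.41 CPM, close to the others, and 1700011H14Rik had 8.36 CPM, above the others. Fabp6, the ileal bile acid binding protein, had 161 CPM in members and 27.2 CPM in the others (log2 2.20). A single barcode gave 25.9% of the Fabp6 UMIs of members, and without it the log2 ratio was 1.80. With members chosen without Ccl25 it was 0.90, below the 2-fold line.

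Rac2, a small GTPase of blood cells, had 233 CPM in members, 30.3 CPM in the others and 1.04 CPM in the control (log2 2.60). Ncf4, a subunit of the phagocyte NADPH oxidase, had 205 CPM in members, 33.7 CPM in the others and 0.325 CPM in the control (log2 2.30). Both are also genes of immune cells, with 660 and 265 CPM in the Ptprc-positive barcodes. The 10 T or NK cell markers summed to 1.80 CPM in members, 13.0 CPM in the others and 3157 CPM in the Ptprc-positive barcodes, with each marker between 0.0474 and 0.569 CPM in members. The 8 B or plasma cell markers summed to 15.3 CPM in members and 822 CPM in the others. The 12 myeloid markers summed to 195 CPM in members, 200.5 CPM in the others and 24265 CPM in the Ptprc-positive barcodes. The 8 dendritic cell markers summed to 0.948 CPM in members and 1.04 CPM in the others, and 5 of them had no UMI in members. The others include clusters 17 and 18, described later, which were led by immune genes. Within the 4 clusters richest in members, the B or plasma cell sum was 17.04 CPM in members and 12.6 CPM in the others, the dendritic sum 1.23 and 0.725 CPM, the T or NK sum 2.27 and 3.87 CPM, and the myeloid sum 252 and 274 CPM. The part of such cells in the results was not tested. Of the 9 NADPH oxidase genes listed, 3 were measured and 2 were at least 2-fold higher in members, Ncf4 and the membrane subunit Cyba with 1330 CPM in members and 526 CPM in the others. Ncf1, a cytosolic subunit under the 50 CPM limit, had 13.0 CPM in members and 0.757 CPM in the others.

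**Figure D2:**
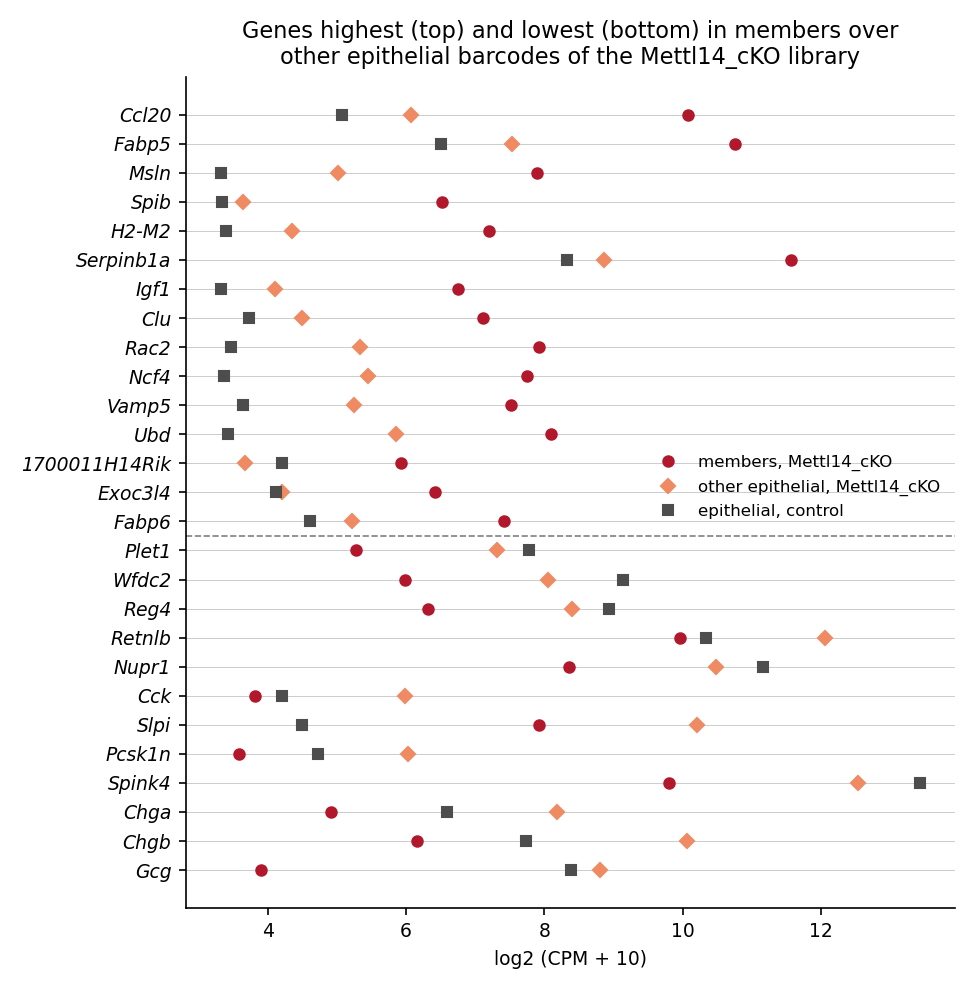
Levels as log2 (CPM + 10) of the 15 highest and 12 lowest genes of members over other epithelial barcodes of Mettl14_cKO, for members (circles), the others (diamonds) and control epithelial barcodes (squares). Ccl20 leads the upper group with 1069 CPM in members and Gcg ends the lower group with 4.93 CPM in members.

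The lowest genes belonged to enteroendocrine, goblet and related secretory cells. Gcg, which encodes proglucagon, had 4.93 CPM in members, 437 CPM in the others and 323 CPM in the control (log2 -4.90). Chga, a granin of hormone granules, had 20.003 CPM in members, 280 CPM in the others and 86.5 CPM in the control (log2 -3.27), and Chgb, its relative, had 61.2, 1055 and 203 CPM (log2 -3.90). A single barcode gave 53.4% of the Chgb UMIs of members, and without it the log2 ratio was -4.79. Pcsk1n, an inhibitor of prohormone processing, had 1.94 CPM in members and 55.4 CPM in the others, and Cck, the cholecystokinin gene, had 4.08 CPM in members and 53.3 CPM in the others. Spink4, a protease inhibitor of goblet cells, had 885 CPM in members, 5927 CPM in the others and 11008 CPM in the control (log2 -2.73). Retnlb, a goblet cell protein that acts against bacteria, had 988 CPM in members, 4233 CPM in the others and 1276 CPM in the control (log2 -2.09). Reg4, of deep crypt secretory cells, had 69.3 CPM in members, 326 CPM in the others and 477 CPM in the control (log2 -2.08). Within the 4 clusters richest in members, described later, none of these genes was 2-fold lower in members than in the others. The log2 ratios there were 0.06 for Gcg, 0.04 for Chga, -0.93 for Chgb, 0.20 for Pcsk1n and 0.40 for Cck. Spink4 had 0.36, Retnlb 0.73 and Reg4 0.10. For each of these genes the member level over all clusters was also below the control level.

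Slpi, a secreted protease inhibitor, was an exception, with 233 CPM in members, 1176 CPM in the others and 12.6 CPM in the control (log2 -2.29). Its summed level was lower in members than in the rest of its library and still above the control. This level rested on few members. Slpi had a UMI in 205 members, and a single barcode gave 31.3% of its 4921 UMIs in members. Members of the 4 clusters richest in members held 214 of these UMIs. Nupr1, a stress-induced regulator of transcription, had 318 CPM in members, 1413 CPM in the others and 2281 CPM in the control (log2 -2.12). Wfdc2, an antimicrobial secreted protein, had 53.2 CPM in members, 256 CPM in the others and 550.4 CPM in the control (log2 -2.07). Plet1, a surface protein, had 28.6 CPM in members, 149 CPM in the others and 209 CPM in the control (log2 -2.05). Within the 4 clusters richest in members the log2 ratios were 0.16 for Slpi, 0.16 for Wfdc2, -0.20 for Plet1 and -1.21 for Nupr1.

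Of the 12 M cell genes listed, 10 were measured, and 6 of them were at least 2-fold higher in members and none lower, with a median log2 ratio of 1.20 beside 0.14 over all genes. The 6 were Ccl20, Spib, Clu, Ccl9, Pglyrp1 and Marcksl1. Ccl9, a chemokine of the follicle-associated epithelium, had 186 CPM in members, 51.5 CPM in the others and 34.7 CPM in the control. Pglyrp1, a peptidoglycan recognition protein, had 2869 CPM in members, 1193 CPM in the others and 1409 CPM in the control. Tnfrsf11a, the receptor of RANKL, lay just under the line with 141 CPM in members, 69.3 CPM in the others and 31.5 CPM in the control (log2 0.93). Gp2, the receptor for bacteria on mature M cells, had 70.9 CPM in members and 55.0 CPM in the others (log2 0.32), and no UMI in the control. Within the 4 clusters richest in members it had 96.3 CPM in members and 22.7 CPM in the others. Cldn4, a tight junction gene, had 93.8 CPM in members and 123 CPM in the others. Below the 50 CPM limit, Tnfaip2 had 16.02 CPM in members and 1.70 CPM in the others, and the transcription factor Sox8 had 11.7 CPM in members and 0.32 CPM in the others.

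Against the other epithelial barcodes, genes of secretory cells were lower in members, while those of absorptive cells were mixed. All 10 measured goblet genes of 14 were at least 2-fold lower in members (median log2 -1.70), as were all 5 measured deep crypt secretory genes of 6 (median -1.99) and 6 of 7 measured enteroendocrine genes of 11 (median -2.48). Of 20 colonocyte genes 10 were measured, 2 higher, 1 lower and 7 in between (median 0.36). Guca2b, the uroguanylin gene, was among the higher ones, with 323 CPM in members and 111 CPM in the others. The lower one was the acute phase gene Saa1, with 22.8 CPM in members and 91.0 CPM in the others. The colonocyte transporter genes Aqp8 and Slc26a3 were low in both groups, with 19.1 and 6.30 CPM in members against 21.7 and 6.996 CPM in the others. Although Plb1 and Ccl25 are known from the small intestine, of the 26 small intestinal enterocyte genes 2 were measured, Fabp6 and Fabp2. Fabp2, the intestinal fatty acid binding protein, had 463 CPM in members, 240 CPM in the others and 1033 CPM in the control. Lactase (Lct) had no UMI in members, and Sis and Apoa1 had 0.0474 and 0.284 CPM. No gene of the Paneth, tuft, erythroid, T or NK, B or plasma, dendritic, or fibroblast and endothelial lists was measured in this comparison. Within the 4 clusters richest in members, described later, the Paneth gene Lyz1 was measured and higher in members (log2 2.31). The 8 Paneth genes there summed to 67.1 CPM in members and 6.28 CPM in the others, and 4 of them had no UMI in members.

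**Figure D3:**
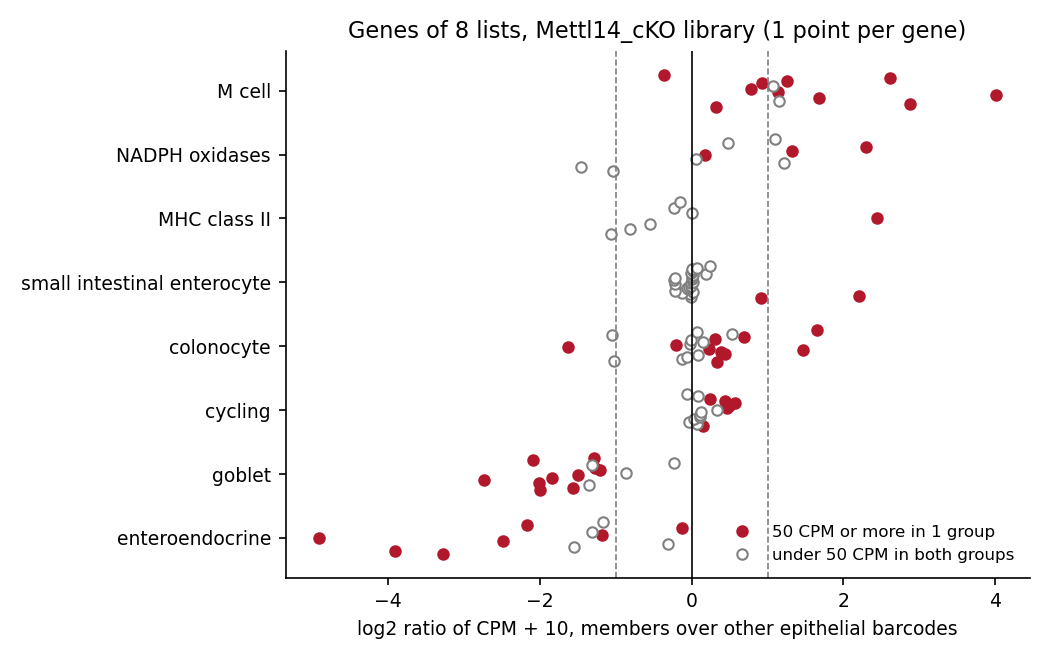
Log2 ratios of members over other epithelial barcodes of Mettl14_cKO for each gene of 8 lists. Filled points had at least 50 CPM in 1 of the groups, and dashed lines mark 2-fold. All 10 filled goblet points lie left of the lower line, and 6 of the 10 filled M cell points lie right of the upper line.

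Among immune-related lists, 1 of 7 MHC class II genes was measured. It was Cd74, the invariant chain of class II, which had 576 CPM in members, 97.5 CPM in the others and 354 CPM in the control (log2 2.45), with quartiles of 4, 9 and 17 UMIs per member. The class II chains did not go with it. H2-Aa had 2.09 CPM in members, 15.1 CPM in the others and 25.3 CPM in the control, H2-Ab1 had 2.28, 11.6 and 60.8 CPM, and H2-Eb1 had 6.87, 14.7 and 31.6 CPM. The class II transactivator Ciita had 0.0474 CPM in members and 0.0336 CPM in the others. In the Ptprc-positive barcodes Cd74 had 8888 CPM and H2-Aa 2495 CPM. Where the Cd74 RNA of members came from was not tested. None of the 3 measured MHC class I genes of 11 and not the 1 measured interferon response gene of 18 reached 2-fold. Of 12 chemokine genes 4 were measured, with Ccl20 and Ccl9 higher and Cxcl2 lower. Of 9 IL-4 and IL-13 target genes 2 were measured, with Socs1, a brake on cytokine signalling, higher and Retnlb lower. Among 16 antimicrobial and acute phase genes 8 were measured, none higher and 4 lower (Slpi, Wfdc2, Saa1 and Lrg1, median -1.27).

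Against the other epithelial barcodes, stress and growth lists showed lower early response genes and little change in the cell cycle. All 10 immediate early genes were measured, none higher and 4 lower (Atf3, Fosb, Nr4a1 and Egr1, median -0.91). Egr1 had 68.7 CPM in members, 175 CPM in the others and 276 CPM in the control. Of 10 ER stress genes 6 were measured, with Herpud1 and Xbp1 lower (median -0.80). Within the 4 clusters richest in members, none of the 8 measured immediate early genes reached 2-fold (median 0.19). Nor did any of the 5 measured ER stress genes there (median -0.04). None of the 6 measured cycling genes of 15 reached 2-fold (median 0.45), and Mki67, a marker of dividing cells, had 64.7 CPM in members and 57.3 CPM in the others. The 1 measured stem cell gene did not reach 2-fold either. Among the 22 fetal-like and regenerative genes 10 were measured and 1, Clu, was higher. Of 11 phospholipase genes besides Plb1 1 was measured, Pla2g10, and it was lower (log2 -1.02). No measured gene reached 2-fold among the lists of oxidative phosphorylation (12 measured), hypoxia and glycolysis (7), intestinal transcription factors (7), brush border (5), lipid uptake (4), amino acid and purine breakdown (3), p53 targets (3), m6A writers (2), squamous and anorectal genes (2), myeloid cells (2) and gasdermins (1).

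The epithelial barcodes of Mettl14_cKO were clustered without the rule genes, which gave 20 clusters. The 4 in which members were most frequent, each over 50%, held 581 of the 989 members (58.7%) with 258 other barcodes. Cluster 11 was 97.6% members (94.4 to 99.2%) among 205 barcodes and was led by 1700011H14Rik, Msln, Ccl20, Serpinb1a and H2-M2. Cluster 15 was 95.7% members among 92 barcodes and was led by Clu, Cldn10, Ccl2 and Ccl20, with 6 of the listed M cell genes among its 50 leading genes. Cluster 9 was 54.5% members among 233 barcodes and was led by Olfm4, a crypt base gene, and cluster 8 was 53.7% among 309, with Akr1c19 and Igf1 among its leading genes. The state thus spanned several clusters, and no cell type name was given to any of them. Ccl20 had 6025 CPM in cluster 15, 2302 CPM in cluster 11, 366 CPM in cluster 9 and 224 CPM in cluster 8. Members were also frequent in cluster 4, with 47.7% of 373 barcodes, which was led by mitotic genes such as Ube2c, Cdk1 and Cenpa. Cluster 5, led by Sprr1a, Saa1, Car4 and other colonocyte genes, held 20.8% members. The clusters led by hormone genes, 10 and 16, held 0.433% and 2%. Clusters 17 and 18, with 40 and 28 barcodes led by immune genes, held none, although they count among the other epithelial barcodes.

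**Figure D4:**
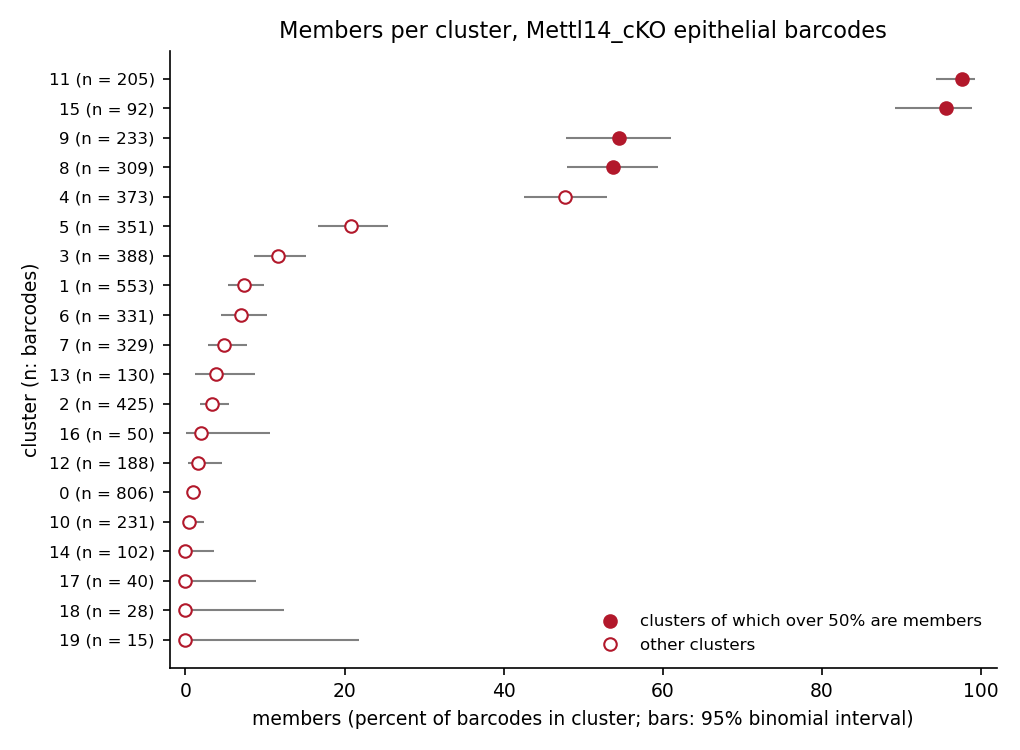
Share of members in each of the 20 clusters of Mettl14_cKO epithelial barcodes, made without the rule genes, with exact binomial 95% intervals. Filled points are clusters of which over 50% were members, led by cluster 11 at 97.6% and cluster 15 at 95.7%.

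Across the 20 clusters, the genes whose levels were most like the summed rule genes were H2-M2 (Pearson's r of 0.98 on log2 CPM plus 10), Igf1 (0.97), Gabrp (0.95), Msln (0.94), Vamp5 (0.93) and Spib (0.93). The clusters come from 1 library and share its depth and free RNA, so these values are descriptions. Gabrp, a GABA receptor subunit, had 24.4 CPM in members, 3.35 CPM in the others and 0.0093 CPM in the control.

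The levels of Ccl20, Msln, Spib and Cd74 rose from step to step of the number of rule UMIs. Between 3 and 4 UMIs taken alone, Ccl20 and Msln did not rise. The steps are made of the UMIs that the rule used, and these genes were already seen to be higher in members. The rise is therefore a description and not independent support. Ccl20 had 45.8 CPM in the 2843 barcodes with no rule UMI, 54.3 CPM in those with 1, 104 CPM with 2 to 3, 285 CPM with 4 to 7, 626 CPM with 8 to 15, 1086 CPM with 16 to 31 and 2971 CPM in the 162 barcodes with 32 or more. Msln had 13.7 CPM with no rule UMI, 105 CPM with 4 to 7 and 458 CPM with 32 or more. Spib had 0.998, 27.9 and 195 CPM at the same steps, and Cd74 had 90.1, 303 and 999 CPM. Muc2 went the other way, with 3411 CPM at no rule UMI, 1079 CPM at 4 to 7 and 381 CPM at 32 or more. Spink4 and Reg4 were highest at no rule UMI but did not fall steadily. Spink4 had 7276 CPM there, 883 CPM at 4 to 7 and 1444 CPM at 8 to 15. It had 385 CPM at 16 to 31 and 803 CPM at 32 or more. Reg4 had 388, 77.4, 82.4, 23.1 and 97.2 CPM at the same steps. Mki67 had 53.3 CPM at no rule UMI, 65.8 CPM at 4 to 7 and 39.1 CPM at 32 or more, with no steady trend. Gp2 was between 45.4 and 64.2 CPM up to 31 rule UMIs and had 135 CPM at 32 or more. The median depth was 7052 UMIs in barcodes with no rule UMI, 14992 with 1, 15811.5 with 4 to 7 and 19733.5 with 32 or more, so depth moved with these steps, most between none and 1. Ccl20 and Muc2 were also read at an equal depth of 2000 UMIs, with the steps still set by the full counts. The order held, with a Ccl20 UMI in 7.63% of barcodes with no rule UMI, 27.2% of those with 4 to 7 and 86.4% of those with 32 or more. A Muc2 UMI was then found in 66.4%, 36.0% and 22.2% at the same steps.

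**Figure D5:**
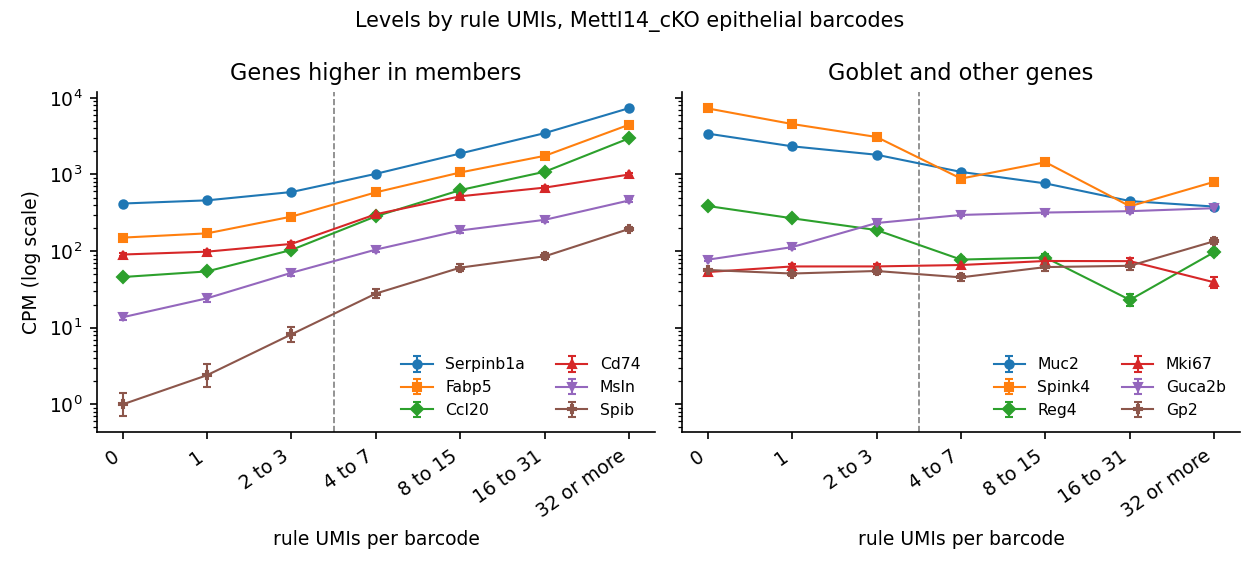
CPM (log scale) of 12 genes in Mettl14_cKO epithelial barcodes by summed rule UMIs, with Poisson 95% intervals. The steps use the UMIs that chose the members, and the dashed line marks the threshold of 4 UMIs. Ccl20 runs from 45.8 to 2971 CPM and Muc2 from 3411 to 381 CPM across the steps.

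Within the 4 clusters where members were most frequent, 581 members were set against the 258 other barcodes. Of 2591 genes, 70 (2.7%) were at least 2-fold higher in members and 6 (0.232%) lower, with a median log2 ratio of 0.01. Ccl20 had 1720 CPM in members and 100.01 CPM in the others of these clusters (log2 3.97), Spib had 120 and 5.80 CPM (3.04), and Serpinb1a had 4504 and 549 CPM (3.01). Cldn10, a claudin, had 87.8 CPM in members and 2.17 CPM in the others (log2 3.01). Tnfrsf11b, the decoy receptor of RANKL known from M cells, had 101 CPM in members and 7.01 CPM in the others (2.71). Fabp5 (2.74) and Clu (2.64) completed the highest genes together with the hormone gene Pyy, whose log2 ratio of 5.25 rested on 1 barcode with 97.1% of its UMIs and was 0.63 without it. In these clusters 1 of 9 measured goblet genes was at least 2-fold higher and none lower, with Muc2 at 493 CPM in members and 383 CPM in the others. None of the 3 measured deep crypt secretory genes reached 2-fold there. Of 3 measured enteroendocrine genes 1, Pyy, was higher and none lower. The lowest were 1810065E05Rik with 85.0 CPM in members and 222 CPM in the others (-1.29), Nupr1 with 277 and 654 CPM (-1.21), the thioesterase Acot1 (-1.09) and the detoxifying genes Mgst1 (-1.01) and Nqo1 (-1.004). Rflnb (-0.99), Csrp2 (-0.96) and Ddah1 (-0.94) followed just inside the 2-fold line.

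The 4 clusters did not contribute alike, so part of these differences is between clusters. Clusters 11 and 15 gave 288 of the members and 9 of the other barcodes, and clusters 9 and 8 gave 293 members and the rest of the others. Within clusters 9 and 8 alone, a comparison added after the data were seen, the differences were smaller, at median depths of 17174 UMIs in members and 14857 UMIs in the others. Ccl20 had 446 CPM in members and 52.7 CPM in the others (log2 2.86), and Spib had 53.4 CPM in members and 5.42 CPM in the others (2.04). Serpinb1a had 1684 CPM in members and 505 CPM in the others (1.72), Fabp5 had 999 and 379 CPM (1.38), and Msln had 159 and 45.6 CPM (1.60). Tnfrsf11b kept 55.02 CPM in members and 6.90 CPM in the others (1.94). Clu was inside the 2-fold line, with 40.1 CPM in members and 16.5 CPM in the others (0.92). Cldn10 was nearly absent from these 2 clusters, with 3.28 CPM in members and 0.493 CPM in the others. Muc2 had 746 CPM in members and 381 CPM in the others (0.95) of clusters 9 and 8.

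Members were also set against barcodes with colonocyte genes and barcodes with Clu and Cldn10, each without members. Against the 88 colonocyte gene barcodes of Mettl14_cKO, 795 of 2883 genes (27.6%) were at least 2-fold higher in members and 437 (15.2%) lower. Of the colonocyte genes 15 of 17 measured were lower in members, part of which the choice of that group fixed, while all 6 measured cycling genes and 7 of 9 goblet genes were higher. The M cell list had 4 of 10 measured genes higher in members, Ccl20, Spib, Gp2 and Ccl9. Its gene Cldn4 was lower, and 5 were between the lines. Fabp5 had 1718 CPM in members and 19.97 CPM in these colonocyte barcodes, and Ccl20 had 1069 and 89.4 CPM. Msln differed less, with 228 CPM in members and 93.8 CPM in the colonocyte gene barcodes (2.43-fold, 2.01 to 2.97), as did Serpinb1a with 3017 and 1819 CPM (log2 0.73). Ubd was lower in members, with 264 CPM in members and 526 CPM in the colonocyte gene barcodes (log2 -0.97). Against the 68 Clu and Cldn10 barcodes, 61 of 2714 genes (2.25%) were higher in members and 60 (2.21%) lower. Fabp5 had 203 CPM in those barcodes (log2 3.02), H2-M2 8.77 CPM (2.97), Spib 3.13 CPM (2.80), Ncf4 31.9 CPM (2.36) and Serpinb1a 592 CPM (2.33). Msln had 106 CPM there (log2 1.04, and -0.06 after thinning). Of 10 measured M cell genes 3 were higher in members than in the Clu and Cldn10 barcodes, Ccl20, Spib and Ccl9, and 7 were between the lines. Of the 245 barcodes with at least 4 UMIs of Clu and Cldn10, 177 were members (72.2%, 66.2 to 77.8%), which is 17.9% of the members. Of the 107 with at least 10 UMIs of the colonocyte genes, 19 were members (17.8%, 11.04 to 26.3%), which is 1.92% of the members.

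Against the control library, 258 of 2854 genes (9.04%) were at least 2-fold higher in members than in the 7704 control epithelial barcodes and 230 (8.06%) lower. Of 10 measured M cell genes 8 were higher, with Gp2 and Tnfrsf11a added to the 6 above, and the median log2 ratio was 2.39. Of 13 measured colonocyte genes 9 were lower in members and 1, Guca2b, was higher, and of 12 measured goblet genes 8 were lower and 1, Tff3, was higher. Against the 429 control barcodes with colonocyte genes, 733 of 2952 genes (24.8%) were higher in members and 469 (15.9%) lower. Car1, the carbonic anhydrase of colonocytes, had 1890 CPM in members and 79077 CPM in those control barcodes, while Ubd had 264 and 0.624 CPM. With 1 library of each genotype, these differences cannot be told apart from those between pools, preparations or sexes.

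Among the promoters printed above, the 7 motifs chosen first were the TATA box (TATAAA), the GATA site (AGATAA), the Cdx site (TTTATNG), an Hnf4 site (CAAAGTCCA), the interferon-stimulated response element, and the STAT sites with spacers of 3 bases (TTCNNNGAA) and of 4 bases. Both strands were searched. TTTATNG was found in Plb1, from 184 to 178 bases before the start, and in Ccl25, and 9.81% of 32851 promoter windows of the same length hold it. TATAAA was found in Ccl25, from 16 to 11 bases before the start and overlapping TTTATNG, and 12.4% of windows hold it. GAGGAA, a core that Spib and related factors can bind, was added after the levels of Spib were seen, and it was found in Il4i1 and Plb1 and at 2 places in Ccl20, but not in Ccl25 or Spib. It is common, in 23.3% of windows, and a match shows only that these letters are there. In the gene annotation, Il4i1 lies at chr7:44816387-44840809 on the plus strand (GRCm38) and overlaps Nup62 on the same strand and Atf5 and Tbc1d17 on the other. Nup62 had 31.4 CPM in members and 20.7 CPM in the others, so the level of Il4i1 was not shared by it. Spib, at chr7:44525993-44532071 on the minus strand, lies 675 bases from Pold1 on the same strand. Pold1, a DNA polymerase subunit, had 55.6 CPM in members and 9.38 CPM in the others (log2 1.76), and whether the counting kept these neighbours apart is not known. Plb1 lies at chr5:32232708-32366520, Ccl25 at chr8:4325210-4360020 and Msln at chr17:25748613-25754378. Ccl25 overlaps Elavl1 on the other strand, which had 76.0 CPM in members and 60.1 CPM in the others.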

How the data were processed

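The authors deposited raw UMI counts per gene and cell barcode, made with Cell Ranger (version 3.1.0 per the file headers, 3.0.0 and Seurat 3 per the submitters' processing notes). The build, annotation release and kit end were not given in the sources used here. The matrices list called cells. The Mettl14_cKO library held 89729527 UMIs in 9225 barcodes and the control library 111239295 UMIs in 10181 barcodes. The members and all 39 gene lists (437 genes, 432 in the matrices) were chosen with earlier results of these data known.

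Counts were summed over the barcodes of a group and scaled to CPM. Intervals are exact Poisson, exact binomial (Clopper-Pearson) for shares, and exact conditional binomial for ratios, at 95%, for counting error only. Log2 ratios used CPM plus 10. Genes needed 50 CPM in 1 group and 10 UMIs, and 2-fold was the line for counting a gene. The 15 highest and 12 lowest genes were named that kept their sign after thinning to 2000 UMIs and were at most 5 times higher in Ptprc-positive, Epcam-negative barcodes than in members. Of genes in the same clusters, 8 highest and 8 lowest were named, as were the 6 most like the rule genes and up to 4 of each list. Further members of some lists, such as M cell genes, were named after their values were seen. Not named were Y-linked, mitochondrial and ribosomal protein genes, those of haemoglobins, antigen receptors and immunoglobulins, and Xist with Tsix.

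Epithelial barcodes of Mettl14_cKO were clustered without the rule genes from 2000 variable genes, 30 principal components and 15 neighbours with leidenalg 0.10.2 at resolution 1. Scrublet was run in scanpy 1.11.5. Sums used numpy 2.4.6 and pandas 2.3.3 and intervals scipy 1.17.1 in Python 3.11.15. Of 31053 gene IDs, 99.9% are in GENCODE M21 (GRCm38), used for coordinates, and promoters came from RefSeq (GRCm38.p6). The scripts were tested on simulated data. Alternatives covered the rule, depth, doublets, pseudocount, filter and clustering. The exclusion of 1 barcode at a time, clusters 9 and 8 alone and GAGGAA were added after the data were seen. A further gene is not reported here.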

Additional observations from a re-analysis of the deposited data

Results flagged for a closer look

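Barcodes outside the depth, gene or mitochondrial limits were not used in any comparison, and some of them carried the rule genes. Of 3450 such barcodes in the Mettl14_cKO library, 27 held at least 4 rule UMIs (0.783%, 0.516 to 1.14%), at a median of 1281 UMIs and 22.2% mitochondrial UMIs over the 3450. In the control library 0 of 2351 such barcodes did, with an upper bound of 0.157%. Of barcodes inside those limits that failed the Epcam, Ptprc or C1qb conditions, 29 of 596 in Mettl14_cKO (4.87%) and 1 of 126 in the control (0.794%) held at least 4 rule UMIs.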

How the results depend on the processing

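No paired analysis was possible because each genotype had 1 pooled library, and none could be left out. The member share of 19.1% in Mettl14_cKO was 22.5% with a threshold of 3 UMIs, 15.2% with 6 and 12.5% with 8. It was 12.2% without Il4i1 in the rule, 16.8% without Plb1 and 15.2% without Ccl25. It was 21.5% with at least 1 UMI after thinning, 10.2% with at least 2, 16.2% with 4 per 10000 UMIs, 24.4% with mitochondrial UMIs under 10% and 15.9% with no immune marker UMI. The control share of 0.0519% was 0.363% with 3 UMIs, 0.0130% with 6, 0% with 8, 0.0130% without Ccl25, 2.40% with at least 1 thinned UMI and 0.208% with 4 per 10000. It stayed below the Mettl14_cKO share under each of these.

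Counts of genes depended on the filter and the pseudocount, by construction of both. Against the other epithelial barcodes, the 70 higher and 73 lower genes were 33 and 33 with a pseudocount of 50 CPM, 115 and 125 with no filter, and 29 and 28 with 200 CPM. Means over barcodes gave 112 and 110. Thinning gave 112 higher. Members by at least 1 thinned UMI gave 43 lower, by at least 2 gave 108 higher, and by 4 per 10000 UMIs gave 106 higher. In the same clusters, the 70 higher and 6 lower were 37 and 3 with a pseudocount of 50, 121 and 12 with no filter, and 29 and 3 with 200 CPM. Clusters 9 and 8 alone, chosen after the data were seen, gave 26 higher and 3 lower. In the 4 clusters, thinning gave 14 lower and a pseudocount of 1 gave 10 lower. Against colonocyte gene barcodes of Mettl14_cKO, the 795 higher and 437 lower were 321 and 284 with a pseudocount of 50 and 190 and 178 with 200 CPM, with 1476 higher at no filter. Against Clu and Cldn10 barcodes, the 61 higher and 60 lower were 31 and 26 with a pseudocount of 50, 105 and 120 with no filter, 23 and 16 with 200 CPM, and 144 and 282 after thinning. Means over barcodes gave 167 lower. Against colonocyte gene barcodes of the control, the 733 higher and 469 lower were 342 and 301 with a pseudocount of 50 and 191 and 196 with 200 CPM, with 1360 higher at no filter. The cause of the other shifts was not tested.

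No named gene at 2-fold or more reversed, with 444 alternative values of named genes within the counting interval of the first and 435 outside it. Of the list medians, 544 alternatives moved by less than 0.5 on the log2 scale, 36 moved more and 2 reversed, both with no filter: small intestinal enterocyte genes at -0.0014 (1.56 with the filter) and MHC class II genes at -0.23 (2.45 with the filter). Both medians with the filter rested on 2 genes or fewer.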
